A study of Mus musculus with 6 samples.

Results

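Noncoding host transcripts, which are spliced, carry small nucleolar RNAs (snoRNAs) and code for no known protein, were followed here through the response of splenic B-cells to lipopolysaccharide (LPS). The 7 genes, Gas5, Snhg1, Snhg3, Snhg5, Snhg6, Snhg8 and Snhg12, were taken by name from the deposited count table, which lists 46959 gene names and all 7 of these, and all 7 were among the 14599 genes that passed the filter on low counts. The table holds 6 libraries, from 3 genotypes in 2 states with 1 library each: wt mice, mice deficient for Eμ, and mice deficient for the 3′RR. Eμ is the intronic enhancer of the immunoglobulin heavy chain locus and 3′RR its regulatory region downstream of the constant genes. Per the study's methods, which name the Eμ-deficient line EμMAR-deficient, all mice had a 129 background and were 8 to 12 weeks old, and both sexes were used. Each library came from CD43- splenic B-cells of 2 mice pooled, left unstimulated (resting) or given LPS at 5 μg per ml. The sample labels give 2 days of culture for both states, whereas the methods describe resting cells as taken before stimulation. If the resting cells were not cultured, effects of LPS and of the 2 days of culture cannot be told apart.

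The genes of this group share 1 way of working. Their introns hold snoRNAs, which are released when the transcript is spliced and guide the chemical modification of ribosomal RNA: box C/D snoRNAs guide ribose methylation and H/ACA snoRNAs guide pseudouridylation, while a few act in the cleavage of the ribosomal precursor. The spliced exons that remain are exported, often loaded on ribosomes and destroyed by nonsense-mediated decay (NMD), so the level of the host RNA and the level of its snoRNAs need not move together. Many such hosts start with a run of pyrimidines, as the genes of ribosomal proteins do. Resting B-cells are small and make little ribosome, and LPS, through its receptor TLR4, drives them to grow and divide.

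The GENCODE M21 annotation (GRCm38) places 29 snoRNA entries with 27 names inside the 7 hosts and on their strand, and the sequences of some show what each host carries. Gas5, the growth arrest-specific host, lies at chr1:161034422-161038539 on the plus strand and holds 10 entries. Snhg1, the host of Snord22, lies at chr19:8723475-8726443 (plus) and holds 8. Snhg3, the host of both Snora73 copies, lies at chr4:132348014-132353686 (minus), and Snhg12, the host of Snora44 and Snora61, lies on the same chromosome at chr4:132308623-132311024 (plus) with 5 entries. Snhg5, the host of both Snord50 copies, lies at chr9:88521050-88522929 (minus). Snhg6, the host of Snord87, lies at chr1:9941959-9944118 (minus), and Snhg8, the host of Snora24, lies at chr3:123507552-123508404 (minus). A choice of 5 of these snoRNAs is printed 5′ to 3′ on the strand of their host, to show the near-identical Snord50 copies and the 2 snoRNAs that lie clear of the exons of their host. Capitals mark box C (ATGATGA or GTGATGA) and box D (CTGA) in the C/D snoRNAs, and the ACA near the 3′ end of Snora73b.
Snord47 (in Gas5, chr1:161038082-161038158, plus): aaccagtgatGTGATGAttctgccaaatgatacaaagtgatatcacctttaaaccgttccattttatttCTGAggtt
Snord50a (in Snhg5, chr9:88521529-88521600, minus): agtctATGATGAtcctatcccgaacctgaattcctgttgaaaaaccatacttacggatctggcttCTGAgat
Snord50b (in Snhg5, chr9:88521797-88521868, minus): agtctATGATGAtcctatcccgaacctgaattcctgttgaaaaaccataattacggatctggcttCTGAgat
Snord87 (in Snhg6, chr1:9942463-9942549, minus): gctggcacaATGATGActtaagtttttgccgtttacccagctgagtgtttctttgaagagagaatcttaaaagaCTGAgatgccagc
Snora73b (in Snhg3, chr4:132352322-132352526, minus): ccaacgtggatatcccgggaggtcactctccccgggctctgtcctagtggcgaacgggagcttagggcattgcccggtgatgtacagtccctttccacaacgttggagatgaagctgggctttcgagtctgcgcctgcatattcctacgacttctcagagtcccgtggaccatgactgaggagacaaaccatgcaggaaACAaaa
Snord50a and Snord50b differ at 1 of 72 bases. Snora73a, the other copy in Snhg3, differs from Snora73b at 7 of 205 bases and is 96.6% identical, so their counts are uncertain where a read fits both. Of the 29 entries, 16 held box C within the first 20 bases and box D within the last 15, on the strand of the entry, against 19.4% of the 1558 snoRNA transcripts annotated in the mouse. An ACA 3 bases before the 3′ end was found in 6 of the 29, against 19.3% of all. Snord80 and Snora16a each stand among the 29 with more than 1 overlapping entry. Both sets mix C/D with H/ACA snoRNAs, so these shares also depend on that mix.

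Start sequences were read for the other feature that hosts are known for, a run of pyrimidines at the start. RefSeq (GRCm38.p6) gave 7 starts for 6 of the hosts. Each line runs from 15 bases before the annotated first base to the 25th base of the transcript, with capitals for the longest run of C and T that begins between 10 bases before and 15 bases after it, on the strand of the transcript.
Gas5 (chr1:161035151-161035190, plus): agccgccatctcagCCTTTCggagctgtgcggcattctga
Snhg1 (chr19:8723472-8723511, plus): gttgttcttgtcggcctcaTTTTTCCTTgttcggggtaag
Snhg3 (chr4:132353662-132353701, minus): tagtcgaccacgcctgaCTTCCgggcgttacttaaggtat
Snhg5 (chr9:88522873-88522912, minus): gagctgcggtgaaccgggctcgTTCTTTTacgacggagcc
Snhg8 (chr3:123508312-123508351, minus): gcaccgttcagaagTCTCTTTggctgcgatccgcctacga
Snhg12 (chr4:132308663-132308702, plus): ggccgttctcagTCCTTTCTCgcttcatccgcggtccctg
The second Gas5 start in RefSeq, further upstream, had a run of 3. Runs of at least 5 pyrimidines stood near 6 of the 7 starts, against 44.1% of the 32841 promoters in the RefSeq set, and runs of at least 7 near 4 of the 7, against 17.3%. None of the marked runs begins at the annotated first base. Those of Snhg3, Snhg1 and Snhg5 begin at bases 3, 5 and 8 of the transcript. Those of Gas5, Snhg8 and Snhg12 begin before the first base and run across it, so that this base is itself a pyrimidine. It is C in Gas5 and Snhg8 and T in Snhg12. These are letters near an annotated start, and the true first base in B-cells was not measured.

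The libraries held between 9111889 and 21997928 counts on genes, the fewest in LPS-stimulated 3′RR-deficient and the most in LPS-stimulated wt B-cells. B-cell markers were present in every library, with a summed level of 1960 to 3030 CPM, in which every library is brought to the same size, in resting and 1690 to 2010 CPM in LPS-stimulated cells. Markers of other cells moved with the state. The 4 erythroid genes summed to 2900 to 17000 CPM in resting and 43.0 to 572 CPM in LPS-stimulated libraries, the 5 myeloid genes to 131 to 315 and 14.0 to 25.0 CPM, and the 5 T-cell genes to 14.1 to 30.9 and 0.335 to 3.56 CPM, and all 14 fell with LPS in the test described next (Cd3e and S100a9 had 0 counts in the wt and Cd8a 0 counts in the wt and 3′RR-deficient LPS library). The erythroid level was highest in the resting Eμ-deficient library, with Hba-a1 at 6964 CPM against 1460 in wt and 1543 in 3′RR-deficient cells, and all 4 erythroid genes were called higher in Eμ-deficient against wt cells. Of the 4 plasma cell genes, Jchain, the joining chain of secreted antibody, was also called higher in Eμ-deficient cells (edgeR adjusted p = 0.00745), at 1735 CPM at rest against 113 in wt and 171 in 3′RR-deficient cells, and the list summed to 174 to 1870 CPM at rest and 314 to 1220 CPM after LPS. Of the 4 genes of activation and division 3 rose with LPS, their sum being 456 to 571 and 1380 to 1480 CPM. The part of these cells in the levels of the host RNAs was not tested, and in bulk RNA fewer cells of a type and less RNA per cell cannot be told apart.

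Together the 7 host RNAs took 0.0389% to 0.0502% of the gene counts in the 3 resting libraries and 0.0719% to 0.125% in the 3 LPS-stimulated libraries. Their summed level was 344 CPM in wt, 492 in Eμ-deficient and 507 in 3′RR-deficient resting B-cells. In LPS-stimulated B-cells the sum was 1317 CPM in wt, 759 in Eμ-deficient and 736 in 3′RR-deficient cells. The wt library thus had the lowest sum at rest and the highest after LPS. Gas5 alone supplied between 40.4% and 48.9% of the host RNA counts. On a scale that divides CPM by the length of the merged exons in kilobases, the order at rest ran from Snhg8 (median of the 3 libraries 66.0, range 43.1 to 75.0) and Gas5 (53.0, 37.9 to 66.0) through Snhg1 (25.8, 24.4 to 39.4), Snhg12 (19.9, 19.9 to 23.1), Snhg6 (18.1, 15.1 to 20.05) and Snhg5 (17.7, 13.0 to 21.4) to Snhg3 (10.7, 5.19 to 12.7). The ranges of Snhg8 and Gas5 overlapped, as did those of Gas5 and Snhg1 and those of Snhg12, Snhg6 and Snhg5. Within each resting library, however, Gas5 stood above Snhg1 (37.9 and 24.4 in wt, 53.0 and 39.4 in Eμ-deficient, 66.0 and 25.8 in 3′RR-deficient cells). Snhg12 likewise stood above Snhg6 in each. Snhg8 stood above Gas5 except in the 3′RR-deficient library, where both were at 66.0. The order of Snhg6 and Snhg5 changed between libraries. After LPS Gas5 had the highest median per kilobase (91.8, 81.5 to 142) and Snhg12 the lowest (19.7, 18.2 to 25.8), and the range of Snhg3 was the widest of the 7 (12.2 to 134). The merged exons, taken from GENCODE M21 and not from the Ensembl models used for counting, include isoforms that keep introns. They cover 853 of the 853 nt of Snhg8, 3760 of 4118 in Gas5, 2969 of 2969 in Snhg1, 2402 of 2402 in Snhg12, 1730 of 1880 in Snhg5, 1146 of 2160 in Snhg6 and 986 of 5673 in Snhg3, so that the order per kilobase depends on these models.

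**Figure D1:**
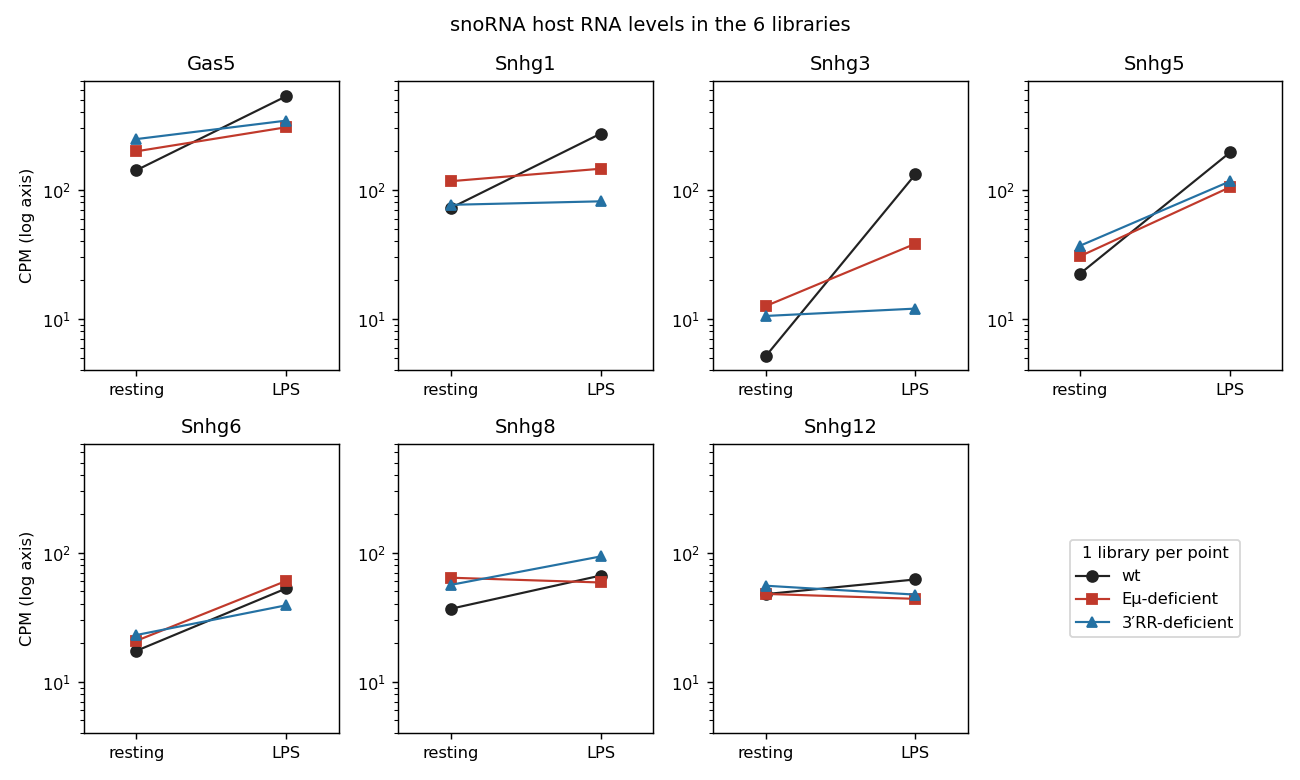
Level of each host RNA in the 6 libraries, in CPM on a log axis, with resting and LPS-stimulated B-cells on the x axis and 1 line per genotype. Each point is 1 library; the wt line climbs most steeply in Gas5, Snhg1, Snhg3 and Snhg5, and Snhg12 stays between 43.8 and 62.0 CPM.

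The level of 4 of the 7 host RNAs was called higher in the LPS-stimulated than in the resting libraries. The test was edgeR's quasi-likelihood test on all 6 libraries with genotype as a block and Benjamini-Hochberg adjustment over the 14599 genes, in which 19.7% of genes were called higher and 21.1% lower at an adjusted p under 0.05. With 1 library per group, the error in it is the unequal response of the 3 genotypes, not the spread between mice. Gas5, Snhg3, Snhg5 and Snhg6 were called higher, none of the 7 was called lower, and the median change was 0.99 on the log2 scale against -0.07 over all genes tested. In 3 of the 7, Gas5, Snhg5 and Snhg6, every LPS-stimulated library stood above every resting one, which held for 25.0% of all genes tested. The groups overlapped in the other 4.

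Snhg5 gave the clearest response. Its level was 22.45 CPM in wt, 30.6 in Eμ-deficient and 37.0 in 3′RR-deficient resting B-cells, and 196, 105 and 117 CPM in the same order after LPS. All 3 LPS-stimulated libraries were well above all 3 resting ones. The change was 2.18 ± 0.33 (SE) on the log2 scale, or 4.53-fold, with an adjusted p of 0.00107 in edgeR's quasi-likelihood test.

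Snhg6 also had separate groups. It stood at 17.3, 20.7 and 23.0 CPM at rest and at 52.8, 60.4 and 39.1 CPM after LPS in wt, Eμ-deficient and 3′RR-deficient cells. The 3′RR-deficient library was the highest at rest and the lowest after LPS. The change was 1.31 ± 0.25 (SE), 2.47-fold (edgeR adjusted p = 0.00368). Snhg6 shares 127 nt of exon with Mcmdc2 on the opposite strand. Mcmdc2 had 8 to 57 counts in a library and fell with LPS (log2 change -1.99, edgeR adjusted p = 0.00770). Whether this overlap affects the counts of Snhg6 was not tested.

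Gas5, whose RNA is known to build up in cells that stop growing, was higher in the stimulated cells. Its level was 142 CPM in wt, 199.5 in Eμ-deficient and 248 in 3′RR-deficient resting B-cells, and 534, 307 and 345 CPM after LPS. The lowest LPS-stimulated library stood above the highest resting one. The change was 0.99 ± 0.33 (SE), 1.99-fold (edgeR adjusted p = 0.0405). The call was lost without the Eμ-deficient libraries, where the change was 1.28 with an adjusted p of 0.0608, and with spike-in scaling, where it was 0.79 with an adjusted p of 0.170, and without the wt libraries the change was 0.57 with an adjusted p of 0.0424.

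Snhg3, the host of the Snora73 snoRNAs that act in the cleavage of the 18S ribosomal RNA precursor, had the most uneven response. It had 93, 166 and 217 counts at rest and 2769, 409 and 107 after LPS in wt, Eμ-deficient and 3′RR-deficient cells, or 5.12, 12.6 and 10.5 CPM followed by 132, 38.3 and 12.02 CPM. The lowest LPS-stimulated library, 3′RR-deficient, was within the resting range. The change over all genotypes was 2.09 ± 0.74 (SE), 4.25-fold (edgeR adjusted p = 0.0478). Without the wt libraries it was 0.95 (adjusted p = 0.0130), without the Eμ-deficient libraries 2.55 and without the 3′RR-deficient libraries 3.12, and DESeq2's Wald test did not call it (adjusted p = 0.118).

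Snhg1, Snhg8 and Snhg12 did not pass the test. Snhg1 stood at 72.6, 117 and 76.7 CPM at rest and at 274, 146 and 81.7 CPM after LPS in wt, Eμ-deficient and 3′RR-deficient cells (log2 change 0.76 ± 0.37 SE, edgeR adjusted p = 0.123). The LPS-stimulated wt library stood far above all others, and without the 3′RR-deficient libraries the change was 1.11 and passed (adjusted p = 0.0487). Snhg8 stood at 36.8, 63.9 and 56.3 CPM and then at 66.5, 58.7 and 93.6 CPM (0.49 ± 0.26, adjusted p = 0.160). Snhg12 stood at 47.7, 47.9 and 55.4 CPM and then at 62.0, 43.8 and 47.3 CPM (0.01 ± 0.23, adjusted p = 0.979), the flattest profile of the 7. Its sign turned to -0.20 when the libraries were scaled by their spike-in counts.

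Within each genotype, the ratio of the LPS to the resting library shows where the uneven responses lie. With 1 library on each side there is no replicate check, and the intervals given are exact 95% binomial (Clopper-Pearson) intervals that cover counting error only. In wt, 5 of the 7 host RNAs were over 2-fold higher after LPS, against 21.4% of all genes tested. In Eμ-deficient cells 3 of the 7, Snhg3, Snhg5 and Snhg6, were over 2-fold higher, against 17.0% of all genes, and in 3′RR-deficient cells 1 of the 7, Snhg5, against 18.6%. The median log2 ratio of the 7 was 1.91 in wt, 0.62 in Eμ-deficient and 0.48 in 3′RR-deficient cells, while the medians over all genes tested were -0.0811, -0.000915 and -0.0848 in the same order.

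Snhg3 spanned the widest range. Its log2 ratio was 4.69 (95% interval 4.40 to 5.01) in wt, a 25.9-fold increase. It was 1.61 (1.34 to 1.88), or 3.05-fold, in Eμ-deficient and 0.19 (-0.16 to 0.53) in 3′RR-deficient cells, where the interval includes no change. The 3 intervals do not overlap. For Snhg1 the ratio was 1.92 (1.83 to 2.00) in wt, 0.32 (0.22 to 0.42) in Eμ-deficient and 0.09 (-0.04 to 0.22) in 3′RR-deficient cells. The wt interval stands apart from both others, whose limits meet at 0.22. For Gas5 the ratios were 1.91 (1.84 to 1.97), 0.62 (0.55 to 0.69) and 0.48 (0.41 to 0.54) in the same order. For Snhg5 they were 3.12 (2.98 to 3.27), 1.78 (1.61 to 1.94) and 1.66 (1.52 to 1.79), so that Snhg5 was over 3-fold higher in each genotype. Snhg6 had overlapping intervals in wt, 1.61 (1.43 to 1.79), and Eμ-deficient cells, 1.54 (1.34 to 1.75), and a lower ratio in 3′RR-deficient cells, 0.77 (0.56 to 0.97). Snhg8 had its lowest ratio in Eμ-deficient cells, -0.12 (-0.27 to 0.03), against 0.86 (0.72 to 0.99) in wt and 0.73 (0.60 to 0.86) in 3′RR-deficient cells. Snhg12 had a ratio of 0.38 (0.25 to 0.50) in wt, -0.13 (-0.30 to 0.05) in Eμ-deficient and -0.23 (-0.39 to -0.07) in 3′RR-deficient cells.

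**Figure D2:**
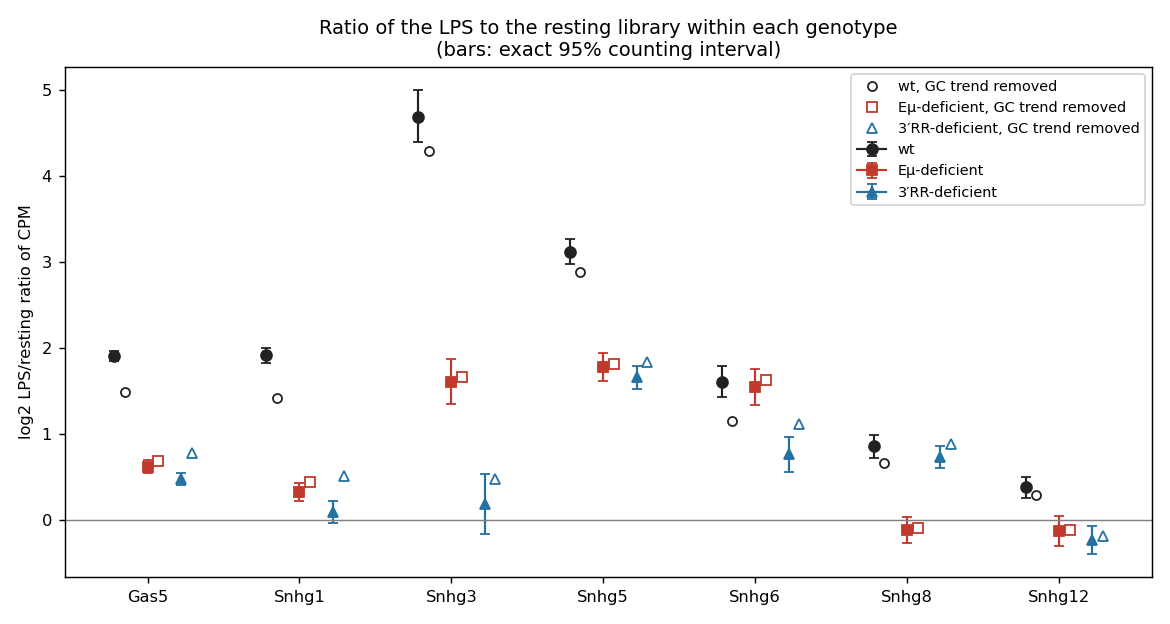
Log2 ratio of CPM between the LPS-stimulated and the resting library for each host RNA (x axis) and genotype (colour and marker), filled with exact 95% counting intervals and open after removal of a trend with GC content. The filled wt marker is the highest of the 3 in all 7 genes, from 0.38 in Snhg12 to 4.69 in Snhg3, while the open wt marker is not the highest in Snhg6 and Snhg8.

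The wt ratio was the highest of the 3 genotypes for 7 of the 7 host RNAs, an order found for 37.4% of all genes tested. The order of the libraries also moved with base composition. Spearman's rho across 13993 genes between GC content and the log2 ratio was -0.264 for LPS against resting in wt, 0.0267 in Eμ-deficient and 0.143 in 3′RR-deficient cells, given as a description over genes of the same libraries. The host RNAs are poor in GC, at 40.5% to 47.6% of the longest transcript against a median of 49.1% over the genes tested. When the trend with GC content was removed, the wt ratio was the highest for 5 of the 7 (32.3% of all genes), with Snhg6 (1.15 in wt, 1.62 in Eμ-deficient) and Snhg8 (0.67 in wt, 0.88 in 3′RR-deficient) as the exceptions. With libraries scaled by spike-in counts it was the highest for 4 of the 7 (8.59% of all genes), those being Gas5, Snhg1, Snhg3 and Snhg5. Under GC removal Gas5 still had a ratio of 1.49 in wt, 0.68 in Eμ-deficient and 0.78 in 3′RR-deficient cells, and Snhg3 4.29, 1.67 and 0.48. The log2 ratios of 35 spike-in RNAs, which should be alike within a comparison, had an SD of 0.784 between the wt libraries, 0.135 between the Eμ-deficient and 0.633 between the 3′RR-deficient libraries, so that a ratio of single libraries can be off by more than its counting interval.

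The genotype terms of the same edgeR fit, which average the 2 states, called none of the 7 host RNAs. Against wt, the Eμ-deficient libraries differed in 1.16% and the 3′RR-deficient libraries in 0.678% of all genes. For Eμ-deficient cells the adjusted p of the 7 lay between 0.986 and 0.991, and for 3′RR-deficient cells between 0.915 and 0.999. In both comparisons 0 of the 7 had an unadjusted p under 0.05 and DESeq2 called 0. The largest genotype terms were those of 3′RR-deficient against wt cells for Snhg3 (-1.48 ± 0.90 SE) and Snhg1 (-0.91 ± 0.45). Averaging hides opposite values in the 2 states here, and the ratios in each state are therefore given. Both deficient genotypes are read against the same wt library, so that a deviation of that library enters both ratios.

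At rest, the Eμ-deficient library was above wt by 0.49 (95% interval 0.41 to 0.57) on the log2 scale for Gas5, 0.69 (0.58 to 0.80) for Snhg1, 1.30 (0.92 to 1.68) for Snhg3, 0.45 (0.25 to 0.65) for Snhg5, 0.26 (0.02 to 0.50) for Snhg6 and 0.80 (0.65 to 0.95) for Snhg8, and differed by 0.01 (-0.14 to 0.16) for Snhg12. The 3′RR-deficient library was above wt by 0.80 (0.73 to 0.87) for Gas5, 1.04 (0.69 to 1.41) for Snhg3, 0.72 (0.54 to 0.90) for Snhg5, 0.41 (0.20 to 0.62) for Snhg6, 0.62 (0.48 to 0.76) for Snhg8 and 0.22 (0.09 to 0.35) for Snhg12, and by 0.08 (-0.03 to 0.19) for Snhg1. The highest ratio in both was that of Snhg3, from 93 counts in the resting wt library. The Eμ-deficient ratios at rest depend on the scaling: by spike-in counts they were -0.33 for Gas5, -0.12 for Snhg1, -0.36 for Snhg5, -0.55 for Snhg6, -0.01 for Snhg8 and -0.81 for Snhg12, and Snhg3, the one ratio still above 0, was at 0.48.

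After LPS, 1 of the 7 host RNAs in Eμ-deficient cells, Snhg3, was more than 2-fold below wt, against 3.39% of all genes. Its log2 ratio was -1.79 (-1.94 to -1.64), 3.45-fold lower. In 3′RR-deficient cells Snhg3 and Snhg1 were more than 2-fold below wt, 2 of the 7 against 10.7% of all genes, with Snhg3 at -3.46 (-3.75 to -3.18), 11.0-fold lower, and Snhg1 at -1.75 (-1.86 to -1.64), 3.35-fold lower. Gas5 was at -0.80 (-0.86 to -0.74) in Eμ-deficient and -0.63 (-0.69 to -0.57) in 3′RR-deficient cells, and Snhg5 at -0.90 (-0.99 to -0.80) and -0.74 (-0.84 to -0.65). Snhg12 was at -0.50 (-0.66 to -0.35) and -0.39 (-0.55 to -0.23). Snhg6 and Snhg8 behaved otherwise, with Snhg6 at 0.19 (0.05 to 0.34) in Eμ-deficient and -0.43 (-0.61 to -0.26) in 3′RR-deficient cells and Snhg8 at -0.18 (-0.32 to -0.04) and 0.49 (0.37 to 0.62). In this state, the ratio of 3′RR-deficient to wt libraries ran most strongly with GC content (rho 0.563 across genes) and had the widest spread of spike-ins (SD 1.27). Most of the 3′RR-deficient ratios depend on the processing. With the GC trend removed, Gas5 was at -0.0030, Snhg5 at -0.39, Snhg12 at -0.29 and Snhg1 at -0.96, so that 1 of the 7, Snhg3 at -2.87, was still more than 2-fold below wt, and Snhg6 turned to 0.26. With spike-in scaling Gas5 was at -0.080, Snhg5 at -0.20, Snhg1 at -1.20 and Snhg3 at -2.91, and Snhg6 and Snhg12 turned to 0.11 and 0.16. In Eμ-deficient cells GC removal gave -1.60 for Snhg3, -0.78 for Snhg5, -0.67 for Snhg1 and -0.61 for Gas5.

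**Figure D3:**
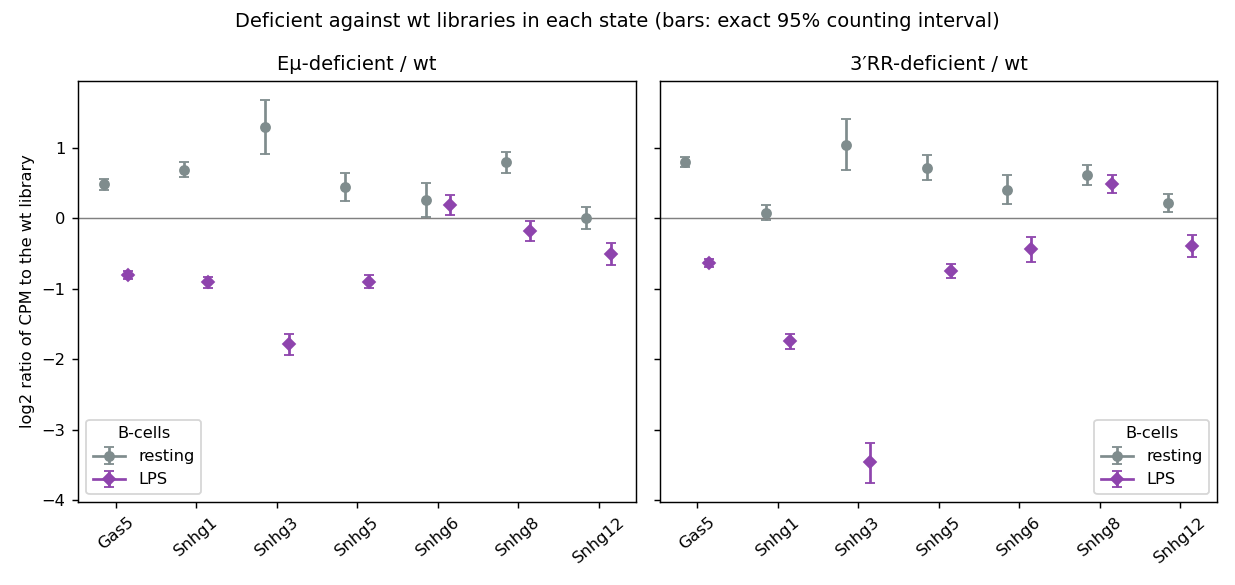
Log2 ratio of CPM of each deficient library to the wt library of the same state, for Eμ-deficient (left) and 3′RR-deficient cells (right), with exact 95% counting intervals. Snhg3 goes from 1.30 at rest to -1.79 after LPS in the left panel and from 1.04 to -3.46 in the right panel, and both panels share the wt libraries.

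Snhg3 can be set beside a snoRNA that lies inside it and beside the gene it starts with. Snora73b had 8584, 6362 and 17481 counts at rest and 9184, 3318 and 8098 after LPS in wt, Eμ-deficient and 3′RR-deficient cells, or 472, 481 and 849 CPM followed by 439, 311 and 910 CPM. The groups overlapped and the change did not pass the test (log2 change -0.21 ± 0.28 SE, edgeR adjusted p = 0.565). Per 1000 counts of Snora73b there were 10.8, 26.1 and 12.4 counts of Snhg3 at rest and 302, 123 and 13.2 after LPS. Rcc1, the exchange factor that charges Ran with GTP on chromatin, starts 81 nt from Snhg3 on the same strand and shares 135 nt of exon with it. The Rcc1 gene spans chr4:132331919-132353605, so Snora73b lies inside Rcc1 as well as inside Snhg3. Whether the snoRNA came from Snhg3 or Rcc1 transcripts was not tested. Rcc1 stood at 12.4, 12.7 and 11.0 CPM at rest and at 63.7, 50.2 and 80.9 CPM after LPS, a change of 2.41 ± 0.26 (SE), 5.30-fold (edgeR adjusted p = 0.000228). In each genotype Rcc1 was higher after LPS, with log2 ratios of 2.36 in wt, 1.98 in Eμ-deficient and 2.87 in 3′RR-deficient cells. The 3′RR-deficient library thus had the highest Rcc1 and the lowest Snhg3 of the LPS-stimulated libraries. A fragment from the shared exon fits both genes and by the counter's default goes to neither. Gm17300, on the opposite strand and with 705 nt of shared exon, had 0 to 7 counts in a library.

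**Figure D4:**
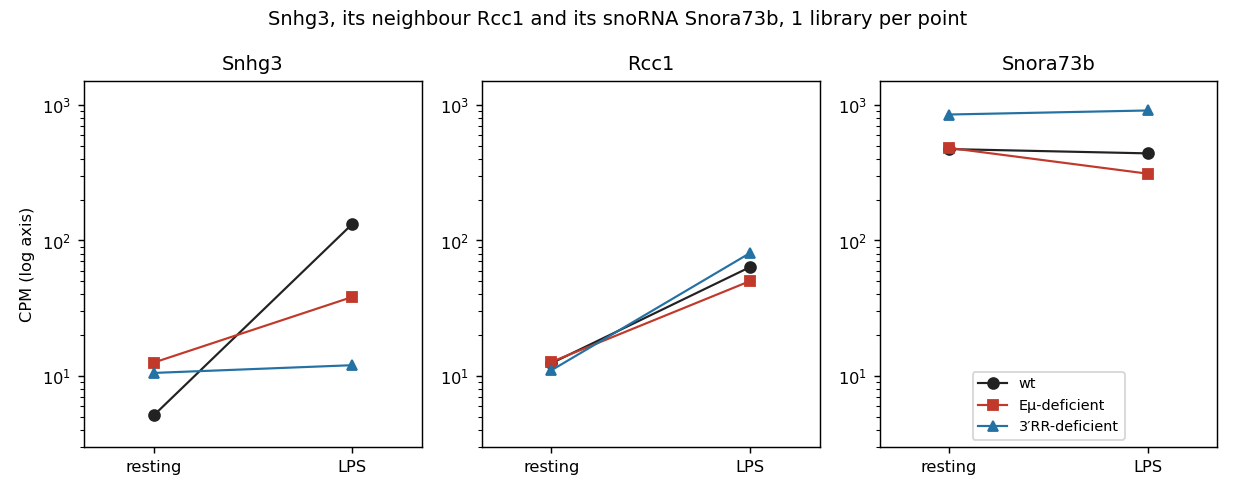
Levels of Snhg3, its neighbour Rcc1 and Snora73b, a snoRNA inside both genes, in CPM on a shared log scale. Resting and LPS-stimulated cells are shown with 1 line per genotype and 1 library per point. Rcc1 is higher after LPS in all 3 genotypes, Snora73b stays between 311 and 910 CPM, and Snhg3 fans out from 12.02 to 132 CPM after LPS.

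The other snoRNAs inside the hosts gave almost no counts. Of the 27 names, 25 overlap annotated exons of their host and 24 of these had 0 counts in all 6 libraries. The exception was Snora73a, with 1 to 19 counts in a library. The 2 without any overlap, Snora73b and Snord87, had counts, in Snord87 from 5 to 31 in a library (log2 change with LPS 0.73, edgeR adjusted p = 0.235). Fragments that touch a snoRNA and an exon of its host are assigned to neither gene by the counter's default, and in GENCODE M21 host isoforms that keep introns cover most of the snoRNAs, so that these zeros give no level of the snoRNA. The overlaps in the Ensembl models used for counting were not examined. If the models used for counting are alike, the counts of Gas5, Snhg1, Snhg5, Snhg8 and Snhg12 leave out fragments over their snoRNAs. Those of Snhg3 then leave out fragments over the 159 nt that Snora73a shares with its exons.

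Genes that start close to a host on the opposite strand were read as well. Slc3a2, the heavy chain of amino acid transporters, starts 106 nt from Snhg1 and fell with LPS (log2 change -0.73 ± 0.26 SE, edgeR adjusted p = 0.0485), with 80.7, 129.9 and 81.2 CPM at rest and 40.9, 62.4 and 73.0 CPM after LPS. Zbtb37, a zinc finger gene that starts 427 nt from Gas5, had a change of -0.66 ± 0.27 that did not pass (edgeR adjusted p = 0.0797). Of the 7 nearest protein-coding neighbours, 5 were tested, 1 was called higher (Rcc1) and 1 lower (Slc3a2), against 19.7% and 21.1% of all genes.

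Other genes of the pathway were read by list. Of 15 other noncoding snoRNA hosts, 11 were in the table and 6 were tested. Of these 6, 1 was called higher with LPS and none lower, against 19.7% and 21.1% of all genes. Their median log2 change was 0.20 (-0.01 with spike-in scaling). The one called was Snhg4, at 14.2, 18.5 and 16.7 CPM at rest and 99.1, 51.0 and 41.5 CPM after LPS in wt, Eμ-deficient and 3′RR-deficient cells (log2 change 1.86 ± 0.32 SE, 3.63-fold, edgeR adjusted p = 0.00216). Snhg17 (0.28, adjusted p = 0.321) and Snhg20 (-0.02, adjusted p = 0.951) were at 31.9 to 51.3 and 8.87 to 10.4 CPM over the 6 libraries. With 6 genes tested, 1 called higher is near the share over all genes.

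Protein-coding snoRNA hosts that are not ribosomal proteins gave 10 of 14 genes called higher and 0 lower, against 19.7% and 21.1% of all genes, with a median of 1.07. Dkc1, the pseudouridine synthase of H/ACA particles, rose 3.59-fold (log2 change 1.85, edgeR adjusted p = 0.000486), Tcp1, a subunit of the CCT chaperonin, 3.07-fold (1.62, adjusted p = 0.00127) and Ncl, nucleolin, 2.42-fold (1.28, adjusted p = 0.00856). In this list 4 hosts did not pass: Eif4a2 (-0.55), Gnl3 (0.02), Eef2 (0.56) and Taf1d (0.76). With spike-in scaling 5 of the 14 were called. Eif4a2, a paralog of the translation helicase Eif4a1, had an adjusted p of 0.199 where Eif4a1 was called higher (1.11, adjusted p = 0.0125).

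Many of the proteins that package snoRNAs were higher after LPS. All 8 core proteins of snoRNA particles were called higher, against 19.7% of all genes, with a median log2 change of 1.51, and 5 of the 8 were with spike-in scaling (median 1.30). Nhp2, an H/ACA core protein, rose 3.77-fold (1.91 ± 0.23 SE, edgeR adjusted p = 0.000334), from 19.4 to 25.4 CPM at rest to 63.5 to 106 CPM after LPS. Fbl, the ribose methyltransferase of C/D particles, rose 2.50-fold (1.32 ± 0.28, adjusted p = 0.00517), and Nop58, its partner, 2.94-fold (1.56 ± 0.33, adjusted p = 0.00571). Of the 10 assembly factors 5 were called higher and none lower, against 19.7% and 21.1% of all genes (median 0.87). Those called included the ATPases Ruvbl1 (3.60-fold) and Ruvbl2 (4.26-fold) and the chaperone Nolc1 (2.88-fold). Nop56 and Dkc1 stand in 2 of these lists.

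Among 10 factors of NMD, which degrades spliced host RNAs, none was called higher and 3 were called lower, against 19.7% and 21.1% of all genes, with a median of 0.01. With 10 genes this is near the share over all genes. The 3 were the kinase Smg1 (log2 change -0.79 ± 0.26 SE, edgeR adjusted p = 0.0353), the endonuclease Smg6 (-0.79 ± 0.23, adjusted p = 0.0239) and Smg9, a partner of Smg1 (-0.91 ± 0.28, adjusted p = 0.0289). Smg9 stood at 29.4, 18.7 and 26.1 CPM at rest and at 9.94, 11.1 and 19.6 CPM after LPS in wt, Eμ-deficient and 3′RR-deficient cells. None of the 10 was called with spike-in scaling or without the Eμ-deficient libraries, and 2 were called higher with the GC trend removed. Upf1, the helicase of the pathway, had a change of 0.32 (adjusted p = 0.371). No gene of the noncoding host, protein-coding host, snoRNA particle, assembly or NMD lists was called between genotypes.

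**Figure D5:**
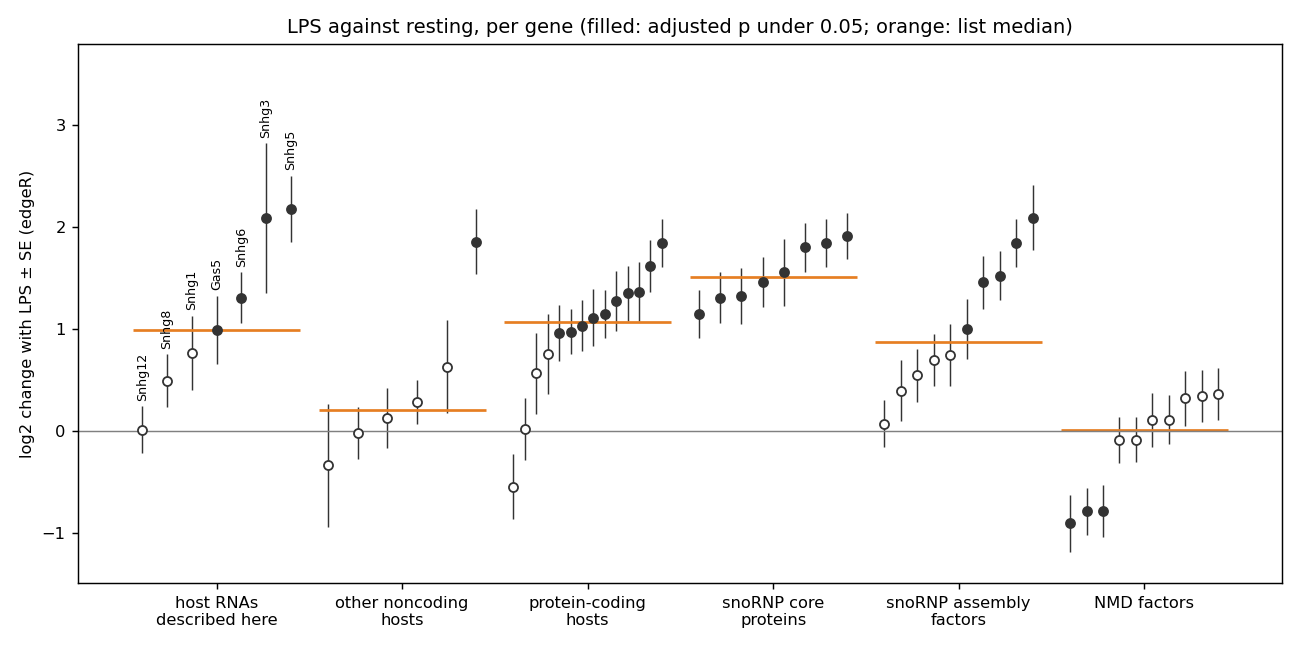
Log2 change with LPS (y axis, edgeR estimate ± SE) of each tested gene in 6 lists, filled where the adjusted p is under 0.05, with the list median in orange. The 8 core proteins of snoRNA particles are all filled with a median of 1.51, the 7 host RNAs range from 0.01 to 2.18, and the NMD factors centre on 0.01.

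The profile of each host RNA over the 6 libraries was compared with those of the other genes tested. Likeness was measured as the root mean square difference of log2 CPM after each gene was centred on its own mean, over 6 libraries. Snhg1 was nearest to Taf1d (0.0981), itself a host of snoRNAs and a subunit of the RNA polymerase I factor SL1, which stood at 32.5, 54.7 and 42.7 CPM at rest and at 135, 72.0 and 38.5 CPM after LPS. Snhg12 was nearest to Bcl11a (0.0573), a transcription factor of the B-cell lineage, and Snhg5 to Lsm7 (0.142), a subunit of the Sm-like ring that binds U6. Snhg6 was nearest to Tmem194 (0.0828) and Gas5 to Cabp4 (0.116). Snhg8 was nearest to Snora47 (0.0619), an H/ACA snoRNA. The nearest gene to Snhg3 was the mitochondrial transfer RNA gene mt-Tp, at a difference of 0.359, the largest such distance among the 7. The nearest other host RNA came at place 218 of 14598 for Snhg3, 895 for Gas5, 903 for Snhg5 and 1005 for Snhg6. It came at place 1157 for Snhg1, 1961 for Snhg8 and 4197 for Snhg12. No background was computed for these places, so they do not show whether the hosts are more or less alike than other genes. Genes near the top of such an order are the best of 14598, and no test was made of them.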

How the data were processed

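RNA-seq was analysed from 6 libraries of mouse CD43- splenic B-cells, 1 per genotype (wt, Eμ-deficient, 3′RR-deficient) and state (resting, LPS-stimulated), each a pool of 2 mice per the labels. The study's methods describe 2 pools per genotype, and 1 library per group was analysed here. The authors made stranded total RNA libraries, mapped paired reads to mm10 with STAR (2.4.0a in the submitters' processing notes) and deposited counts per gene name from featureCounts (Subread 1.4.6-p1), using primary alignments, strand setting 1 and multi-mapping reads, with Ensembl gene models. Multi-mapping reads let near-identical copies exchange counts.

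Of 47055 names, 92 spike-in RNAs and 4 further rows that name no gene entered neither the library sizes nor the tests. The spike-ins held 4.75% to 7.10% of counts. Of the 46959 gene names, 44131 were found in GENCODE M21, from which coordinates, exons and GC content were taken. Members, lists and tests were chosen with earlier results of these data known. The 14599 genes with 10 counts or more in 2 or more libraries were tested with edgeR 4.0.16 (R 4.3.3, TMM, quasi-likelihood, genotype plus state, 2 residual degrees of freedom) and Benjamini-Hochberg adjustment. The SE given with a log2 change is not reported by edgeR. It was derived as the size of the log2 change divided by the square root of the F statistic. The named genes were the 7 hosts, the lists, nearest protein-coding neighbours, snoRNAs inside the hosts, and the 3 tested genes most like each host. Ratios of 2 libraries have exact 95% binomial intervals for counting error only. Alternatives were other scalings (DESeq2 size factors, total counts, spike-ins), other filters, removal of a GC trend (lowess, span 0.3), DESeq2 1.42.0, no genotype term, log2(CPM + 1) and leaving out each genotype. On simulated data (14599 genes, of which 200 were changed, LPS against resting) 29.8% of genes changed 2-fold and 89.8% of those changed 4-fold were recovered, and 5.69% of calls were unchanged genes. Counts were drawn with the trend in dispersion, not with the dispersion of each gene. In the data 5961 genes were called, far more than the 200 changed here, so these rates need not hold for the real test.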

Additional observations from a re-analysis of the deposited data

Results flagged for a closer look

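For several host RNAs a deficient library stood above wt at rest and below it after LPS, a pattern that for many depends on the scaling. Snhg3 kept it with spike-in scaling, at 0.48 and then -1.64 in Eμ-deficient and 0.80 and then -2.91 in 3′RR-deficient cells. In 3′RR-deficient cells Gas5 (0.56, then -0.080) and Snhg5 (0.48, then -0.20) also kept it with this scaling. None of these differences of ratios was tested, since each rests on 4 libraries without replicates, and both genotypes share the wt libraries. The log2 ratio of the Eμ-deficient to the wt library was lower after LPS than at rest by values of -1.29 for Gas5, -1.59 for Snhg1, -3.08 for Snhg3, -1.34 for Snhg5, -0.98 for Snhg8 and -0.51 for Snhg12. For Snhg12 the ratio at rest was 0.01 (-0.14 to 0.16), which has no clear sign, and for the others the signs in the 2 states were opposite. With spike-in scaling the Eμ-deficient ratios at rest were all below 0, from -0.81 for Snhg12 to -0.01 for Snhg8, except that of Snhg3 at 0.48. For the 3′RR-deficient library the values were -1.43 for Gas5, -1.83 for Snhg1, -4.50 for Snhg3, -1.47 for Snhg5, -0.84 for Snhg6 and -0.61 for Snhg12. With the GC trend removed, the 3′RR-deficient ratio after LPS was -0.0030 for Gas5 and 0.26 for Snhg6, and at rest it was -0.049 for Snhg1. The ratio of LPS to resting also had values of opposite sign between genotypes in 2 genes. The Eμ-deficient ratios, -0.12 (-0.27 to 0.03) for Snhg8 and -0.13 (-0.30 to 0.05) for Snhg12, have no clear sign. The 3′RR-deficient ratio of Snhg12 was -0.23 (-0.39 to -0.07). In Snhg8 the Eμ-deficient ratio differed from wt by -0.98 and the 3′RR-deficient ratio from the Eμ-deficient by 0.86. In Snhg12 the differences from wt were -0.51 for Eμ-deficient and -0.61 for 3′RR-deficient cells. With spike-in scaling the LPS to resting ratio in Eμ-deficient cells was 0.046 for Snhg8 and 0.041 for Snhg12. The log2 LPS to resting ratios of the spike-in RNAs had SDs of 0.784 in wt, 0.135 in Eμ-deficient and 0.633 in 3′RR-deficient cells. Those of the deficient to wt ratios lay between 0.157 and 1.27. A difference of such ratios can therefore be off by more than counting error.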

How the results depend on the processing

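The count of 4 host RNAs called with LPS was 2 with spike-in scaling and 2 when 10 counts were required in every library, and 3 to 5 when 1 genotype was left out. Over all genes 5961 were called, and 3958 to 6660 with 1 genotype left out, the lowest without the Eμ-deficient libraries. Spike-in scaling gave 1455 genes higher and 2901 lower (33.4% higher, against 2882 and 3079 or 48.3%) and moved the median change of all genes from -0.07 to -0.28; total-count scaling moved it to -0.16. The cause of these differences was not tested. Snhg5 was called under all 11 alternatives, with an adjusted p no higher than 0.00218, Snhg6 under 10 (spike-in scaling 0.0503), Gas5 under 8 (0.00389 to 0.170) and Snhg3 under 8 (4.56e-10 to 0.118). Snhg1 was called under 3 (0.0275 to 0.374), and Snhg8 and Snhg12 under 0.

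No host RNA was called between genotypes, except that without a filter on low counts 1 was for 3′RR-deficient against wt, Snhg3 (-1.55, edgeR adjusted p = 0.00730; over its 7 alternatives up to 1.00). Some uncalled values changed sign. The LPS change of Snhg12 was -0.086 with total-count scaling, -0.20 with spike-in scaling, -0.10 with 10 counts in every library, -0.0019 with the GC trend removed and -0.16 without the wt libraries, with 0.17 as the highest value over all alternatives. Spike-in scaling turned the Eμ term of Snhg6 to -0.077 and of Snhg8 to -0.021 and the 3′RR term of Snhg5 to 0.14 and of Snhg12 to 0.062, and GC removal that of Snhg5 to 0.095. The 3′RR term of Gas5 was -0.0014 with DESeq2 size factors, -0.021 with total counts and -0.020 without a filter, and that of Snhg6 was -0.035, -0.073 and -0.054 under the same settings, -0.0085 with 10 counts in every library and -0.0098 with DESeq2. Among ratios of 2 libraries whose counting interval left out 0, spike-in scaling turned Eμ-deficient against wt at rest to -0.33 for Gas5, -0.12 for Snhg1, -0.36 for Snhg5, -0.55 for Snhg6 and -0.014 for Snhg8, 3′RR-deficient against wt after LPS to 0.11 for Snhg6 and 0.16 for Snhg12, 3′RR-deficient against wt at rest to -0.027 for Snhg12, and LPS against resting in wt to -0.42 for Snhg12. GC removal turned Snhg6 to 0.26 for 3′RR-deficient after LPS and to -0.068 for Eμ-deficient at rest. Among those whose interval held 0, spike-in scaling gave -0.81 for Snhg12 (Eμ-deficient against wt at rest), -0.16 for Snhg1 (3′RR-deficient against wt at rest), and 0.046 for Snhg8 and 0.041 for Snhg12 (LPS against resting in Eμ-deficient cells). Genotype was the block that pairs a resting with an LPS library, and without it 4 host RNAs and 5421 genes were called.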
